A study of Mus musculus with 4 samples.

Results

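The 8 genes described here are Tmem26, Dab2, Rab3il1, Olfm1, Mcf2l, Smap2, Arhgap22 and Dio2, out of 16403 genes listed in mouse peritoneal macrophages. They were selected on their size of change with IL-4 in both genotypes and are not among the usual markers of the IL-4 response. The first 6 were higher with IL-4 and the last 2 were lower. Because the IL-4 ratios chose these genes, those ratios, and the difference between them, are given as a description with counting errors and without a test. The knockout to wild-type ratios at each treatment were not used in the choice and were tested. The choice does favour a small gap between these 2 ratios of a gene, so they are not independent of each other.

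Total RNA was sequenced from 4 libraries, with 1 library in each group. All mice were C57BL/6, and their ages are not in the labels. The wild-type (WT) untreated and WT IL-4 groups came from wild-type littermates, and the knockout (KO) untreated and KO IL-4 groups from mice in which floxed Trim24, named TIF1a in the labels, was deleted by Cre under the lysozyme M promoter, which acts in the myeloid lineage. All 4 groups were peritoneal cells drawn by 4% thioglycolate over 4 days or more and left to adhere for 4 h. They were incubated overnight and starved overnight in 0.5% serum. The IL-4 groups then received 20 ng/mL IL-4 for 6 h. With 1 library per group there is no replicate check, so each test compares 2 libraries and not 2 conditions.

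IL-4 is a type 2 cytokine whose receptor activates JAK kinases and the transcription factor STAT6. Phosphorylated STAT6 enters the nucleus, binds palindromic TTC and GAA elements, and turns macrophages toward alternative activation, the M2 state. The classical markers of that state are enzymes, lectins and chemokines such as Arg1, Chil3 and Mrc1. The 8 genes encode other kinds of protein. Mcf2l and Arhgap22 act on the GTPases Cdc42 and Rac1, Smap2 on Arf GTPases and Rab3il1 on Rab GTPases, the molecular switches of the cytoskeleton and of vesicle traffic. Dab2 is a clathrin adaptor, Olfm1 a secreted olfactomedin glycoprotein, Tmem26 a transmembrane protein best known as a marker of beige adipocytes, and Dio2 the deiodinase that converts the prohormone thyroxine into active triiodothyronine.

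Libraries held 11026033 to 11250099 expected reads, and the floor of 3 reads equalled 0.267 to 0.272 CPM (reads scaled by library total). Trim24 was listed with 174.92 and 103 reads in the WT libraries (untreated and IL-4) and with 4 and 10 in the KO libraries. All 8 macrophage markers were listed in every library, and their summed level ran from 8319.66 to 14906 FPKM (reads scaled by transcript length and library total). Lyz2, whose locus carries the Cre, made up most of that sum and was the lower in KO, at 5193.22 and 4761.07 FPKM against 11289.3 and 10811. The neutrophil markers S100a9 and Ly6g and the eosinophil marker Epx were listed in no library and were taken as 0. Whether the reference used for counting held them is not known. The summed markers of B, T, NK, mast, eosinophil, dendritic and large peritoneal macrophage cells stayed at or under 5.99 FPKM. The eosinophil markers that were listed, Siglecf and Prg2, summed to between 1.06 and 2.04 FPKM. The neutrophil markers that were listed, S100a8 and Csf3r, summed to 50.01 and 81.15 FPKM in WT (untreated and IL-4) and to 46.08 and 83.82 FPKM in KO, a rise carried by Csf3r (41.25 to 76 FPKM in WT and 40.82 to 76.3 FPKM in KO). S100a8 went from 8.76 to 5.15 FPKM in WT and from 5.26 to 7.52 FPKM in KO. The 9 stromal and mesothelial markers summed to 50.52 and 43.13 FPKM in WT (untreated and IL-4) and to 25.7 and 46.2 FPKM in KO. The part of these markers in the results was not tested. In such bulk RNA a smaller number of expressing cells and less RNA per cell cannot be told apart.

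The promoters of 7 of the 8 genes were found in the RefSeq table of GRCm38.p6, and Smap2 had no entry. They were searched on both strands, over 250 bases before and 50 bases after each start listed there, which need not be every start of a gene. The search was for the STAT6-type element TTCNNNNGAA and for TTCNNNGAA, the spacing that other STAT proteins use. The letters of a match are a description and not proof of binding. The stretches before the start that hold a match are shown with the matching letters in capitals. Tmem26 comes first (chr10:68723496-68723745, plus strand), the only member with the STAT6-type letters in a searched promoter.
Tmem26: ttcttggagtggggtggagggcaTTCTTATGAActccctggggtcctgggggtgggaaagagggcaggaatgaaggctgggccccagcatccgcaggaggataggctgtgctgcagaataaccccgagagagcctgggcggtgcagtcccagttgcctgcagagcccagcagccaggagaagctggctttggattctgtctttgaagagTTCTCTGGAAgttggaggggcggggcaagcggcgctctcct

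Tmem26 held 2 matches, TTCTTATGAA beginning 227 bases and TTCTCTGGAA beginning 41 bases before the start. Of all 32851 promoter windows of 300 bases, 6.95% held at least 1 such match and 0.323% held 2 or more. Among genes called higher with IL-4 in both genotypes, 54 of the 417 with a promoter window held the letters (12.9%), compared with 18 of 323 genes called lower in both (5.57%) and 854 of 12728 listed genes (6.71%). No test was run on these shares.

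The shorter spacing was found at 1 of the 2 Dab2 starts and at 1 of the 6 Mcf2l starts, and in 8.30% of all windows. The Dab2 window lies at chr15:6299539-6299788 and the Mcf2l window at chr8:12949173-12949422, both on the plus strand. The matches begin 72 and 59 bases before the starts.
Dab2: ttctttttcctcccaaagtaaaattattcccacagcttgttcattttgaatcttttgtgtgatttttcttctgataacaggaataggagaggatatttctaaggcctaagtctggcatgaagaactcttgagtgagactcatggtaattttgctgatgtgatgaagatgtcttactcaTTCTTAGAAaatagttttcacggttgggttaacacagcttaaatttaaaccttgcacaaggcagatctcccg
Mcf2l: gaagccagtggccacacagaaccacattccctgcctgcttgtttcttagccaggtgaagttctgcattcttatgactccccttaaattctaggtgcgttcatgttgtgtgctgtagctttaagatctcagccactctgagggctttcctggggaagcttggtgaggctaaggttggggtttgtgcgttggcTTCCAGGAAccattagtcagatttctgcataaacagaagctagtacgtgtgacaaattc

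Neither spacing was present at the 5 Rab3il1 starts, the 2 Olfm1 starts, or the 1 start searched for each of Arhgap22 and Dio2. The Arhgap22 window (chr14:33216573-33216872) lies inside the gene span, which begins at 33213994. The outermost end of Arhgap22 was therefore not searched. The Dio2 window (chr12:90739039-90739288, minus strand) held the cyclic AMP response element TGACGTCA beginning 95 bases before the start. That motif was looked for after the Dio2 sequence had been read, because Dio2 is known to be raised by cyclic AMP, and it occurred in 1.79% of all windows.
Dio2: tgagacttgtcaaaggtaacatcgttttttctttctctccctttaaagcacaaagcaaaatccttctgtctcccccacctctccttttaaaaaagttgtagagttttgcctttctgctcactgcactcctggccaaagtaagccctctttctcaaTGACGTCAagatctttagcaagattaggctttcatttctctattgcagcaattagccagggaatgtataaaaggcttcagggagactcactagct

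Tmem26 (gene ID 327766, chr10:68723746-68782655) had the largest change of the 8 genes. Its level was 1.36 FPKM in WT untreated and 95.76 FPKM in WT IL-4 cells, and 1.56 FPKM in KO untreated and 126.83 FPKM in KO IL-4 cells. These levels rested on 78, 5583, 89 and 7239 reads in the same order. By FPKM it held rank 10095 of 14842 listed genes in WT untreated and 9901 of 14923 in KO untreated cells, and rank 748 and 546 in the WT and KO IL-4 cells. On the log2(FPKM + 0.1) scale used for all ratios of 2 libraries, the IL-4 ratio was 6.04 ± 0.16 (counting SE) in WT and 6.26 ± 0.15 in KO. The WT ratio is a 65.7-fold change with a 95% counting interval of 52.5 to 82.0, and the KO ratio a 76.5-fold change with an interval of 62.1 to 94.2. With a pseudocount of 1 in place of 0.1 FPKM the ratios were 41.0-fold and 49.9-fold, since the untreated levels are close to 1 FPKM. Only Arg1, Cish and Chil3 had a larger mean response among the 7464 genes that averaged 5 FPKM or more.

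Dab2 (13132, chr15:6299788-6440715), an endocytic adaptor that links cargo receptors to clathrin and AP-2, was at 7.57 FPKM in WT untreated and 78.96 FPKM in WT IL-4 cells. In KO it was at 6.89 and 71.08 FPKM. The reads were 375, 3985, 341 and 3498. The WT and KO changes were almost equal, 10.3-fold (9.27 to 11.5) and 10.2-fold (9.11 to 11.4).

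Rab3il1 (74760, chr19:10001669-10038380), also called GRAB, is an exchange factor that loads Rab3 and Rab8 with GTP. It had the highest level of the 8 genes in both IL-4 libraries, 230.84 FPKM in WT and 205.28 FPKM in KO. The untreated levels were 25.41 FPKM in WT and 23.4 FPKM in KO. Its ratios were 9.05-fold (8.35 to 9.81) in WT and 8.74-fold (8.03 to 9.51) in KO, on 652, 6042, 600 and 5260 reads. Rab3il1 thus went from a gene of rank 2639 and 2827 to rank 320 and 348.

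Smap2 (69780, chr4:120968317-121017289) encodes a GTPase-activating protein for Arf1 that binds clathrin at the trans-Golgi network and early endosomes. It was well expressed without IL-4, at 28.67 FPKM in WT and 32.15 FPKM in KO. With IL-4 it stood at 162.52 FPKM in WT and 197.75 FPKM in KO, and the 4 libraries held 930, 5377, 1042 and 6405 reads. The changes, 5.65-fold (5.27 to 6.06) and 6.13-fold (5.75 to 6.55), were the smallest of the 6 genes that were higher.

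Olfm1 (56177, chr2:28193093-28230736), a secreted protein studied mainly in the nervous system, was at 2.74 FPKM in WT untreated and 29.6 FPKM in WT IL-4 cells. In KO it was at 2.35 and 29.17 FPKM, so both untreated levels lay far below both IL-4 levels. On 73, 864, 68 and 849 reads the ratio was 10.5-fold (8.24 to 13.3) in WT and 11.9-fold (9.34 to 15.3) in KO. The mean transcript length that the quantification assigned to Olfm1 was 2407.1 bases in WT untreated cells and 2583.12 to 2629.87 bases in the other libraries, so its FPKM carry a shift in the estimated mix of transcripts.

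Mcf2l (17207, chr8:12873806-13020502), also called Dbs, is an exchange factor for Cdc42 and related GTPases. Its level was 1.26 FPKM in WT untreated and 14.42 FPKM in WT IL-4 cells, and 1.75 and 18.83 FPKM in KO. The reads were 73, 852, 102 and 1087, and the ratios 10.7-fold (8.41 to 13.5) and 10.2-fold (8.36 to 12.5). In the IL-4 libraries of both genotypes Mcf2l had the lowest level of the 6 higher genes. At a pseudocount of 1 FPKM its WT ratio was 6.82-fold.

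Arhgap22 (239027, chr14:33213994-33369936), a GTPase-activating protein for Rac1, was at 23.17 FPKM in WT untreated and 4.5 FPKM in WT IL-4 cells. The KO levels were 25.97 and 6.05 FPKM. With 667, 132, 747 and 174 reads, it was lower by 5.06-fold (4.20 to 6.10) in WT and by 4.24-fold (3.60 to 5.0) in KO.

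Dio2 (13371, chr12:90724552-90739038) was at 14.96 FPKM in WT untreated and 2.82 FPKM in WT IL-4 cells. In KO it was at 22.13 and 5.36 FPKM, so each KO level was above the WT level of the same treatment. The reads were 1075, 207, 1589 and 385. It was lower with IL-4 by 5.16-fold (4.45 to 5.98) in WT and by 4.07-fold (3.64 to 4.55) in KO. Dio2 left rank 4118 and 2959 for rank 8613 and 7281 among the listed genes.

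**Figure D1:**
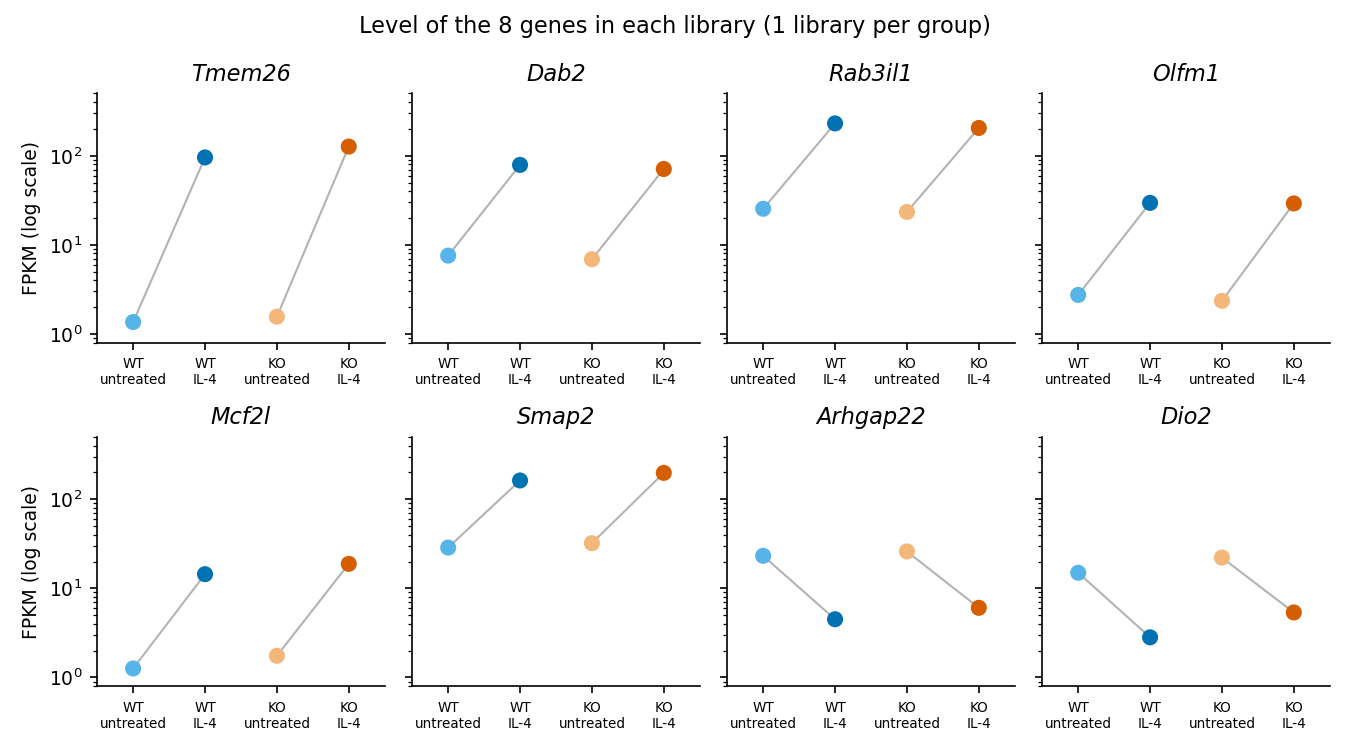
FPKM of each of the 8 genes in the 4 libraries on a log axis. Each point is 1 library and grey lines join the untreated and IL-4 libraries of a genotype, so there are no error bars. Tmem26 shows the steepest lines (1.36 to 95.76 FPKM in WT), and Arhgap22 and Dio2 are the genes whose lines run down.

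As background for these changes, with a call set at a Fisher's exact test adjusted p under 0.05 and a fold above 1.5, the WT pair had 4.91% of 15593 genes higher with IL-4 and 7.88% lower. The KO pair had 5.29% of 15738 genes higher and 4.03% lower. When the trend of each library over transcript length was removed, WT had 5.19% higher and 5.24% lower in place of 4.91% and 7.88%. The 8 genes were picked on this contrast, so nothing is read from their own counts. By mean response over the genotypes they held rank 4 (Tmem26), 23 (Olfm1), 25 (Mcf2l), 26 (Dab2), 27 (Rab3il1) and 36 (Smap2) among the 7464 genes. Arhgap22 and Dio2 held rank 3 and 4 from the lower end, at mean log2 ratios of -2.21 and -2.20. The next genes outside the set were Sema4b at 2.48, just under Smap2 at 2.56, and Clec4e at -2.08, just above Dio2. Of 30 canonical IL-4 markers, 3 had a larger mean response than Tmem26 and 16 had a larger one than Dab2, Rab3il1, Olfm1 and Mcf2l, while 17 were ahead of Smap2.

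**Figure D2:**
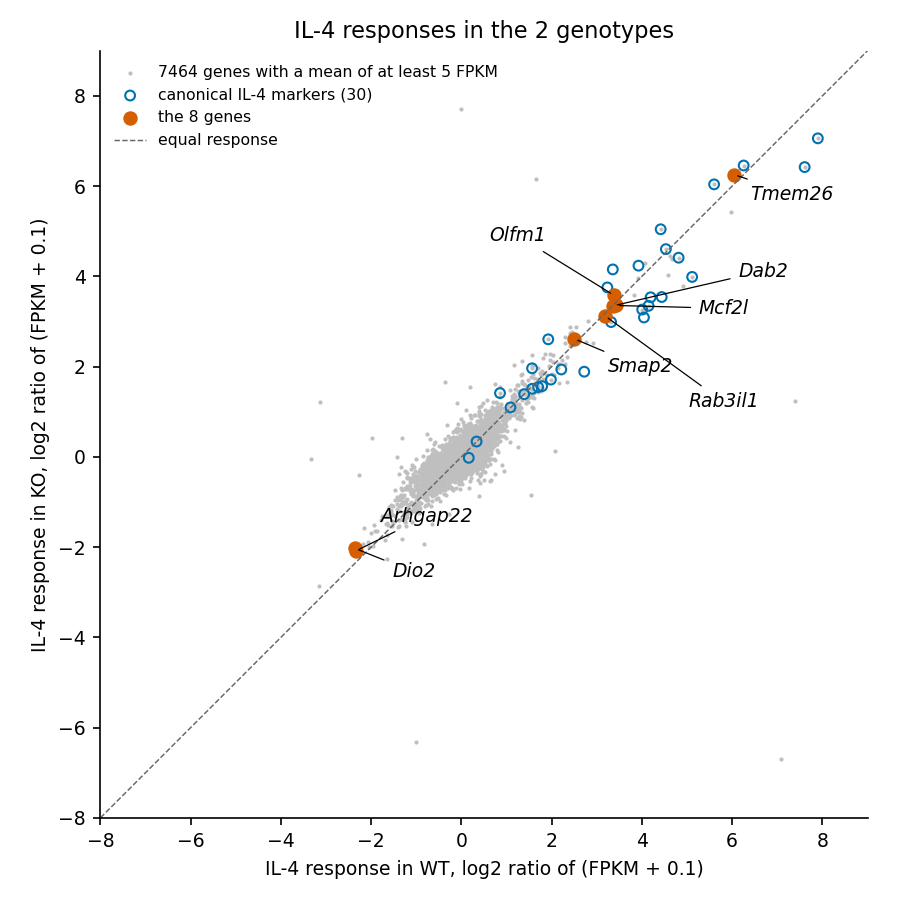
IL-4 response in WT (x axis) and KO (y axis) as log2 ratios of FPKM + 0.1, for 7464 genes that averaged 5 FPKM or more (grey), 30 canonical IL-4 markers (blue rings) and the 8 genes (orange). The 8 genes lie close to the dashed line of equal response, with Tmem26 at 6.04 in WT and 6.26 in KO.

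The IL-4 ratios of the 2 genotypes can be set side by side for each gene, but a choice made on large changes in both favours similar ratios, so the differences are a description. The differences were taken on log2(count + 0.5) scaled by library total, so they can depart from those of the printed ratios. None of the 8 had a difference above 1.5-fold with a 95% counting interval that left out 0. The share over 11664 genes with at least 10 reads on average was 5.27%, from which nothing is read about the 8. KO minus WT, the difference was 0.21 (-0.23 to 0.65) for Tmem26, a range that allows a response in KO from slightly weaker to over 1.5-fold stronger. For the genes with more untreated reads the limits were tighter. The difference was -0.02 (-0.24 to 0.20) for Dab2, -0.05 (-0.22 to 0.12) for Rab3il1 and 0.12 (-0.02 to 0.25) for Smap2. It was 0.10 (-0.39 to 0.60) for Olfm1 and -0.10 (-0.55 to 0.35) for Mcf2l, on 68 to 102 untreated reads. For the falling genes it was 0.26 (-0.10 to 0.62) for Arhgap22 and 0.36 (0.09 to 0.63) for Dio2, where a positive value is a smaller fall in KO. The interval of Dio2 alone left out 0, and it took in 0 once the length trend was removed (0.10, -0.16 to 0.37). These intervals cover counting error only, and the spread between mice is unknown.

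Without IL-4 the KO to WT ratio was called for none of the 8 genes, and for 1.58% of all 15623 genes. Dio2 came nearest. It was 1.48-fold higher in KO (log2 0.56 ± 0.06, Fisher's exact test adjusted p = 3.3e-21), just under the fold of the call. The other 7 ratios had adjusted p of 0.12 or more. Mcf2l had the largest of them, 0.44 ± 0.22, and Olfm1 the lowest, -0.21 ± 0.24.

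With IL-4 the ratio was called for Dio2 alone, 1 of the 8 genes, beside 3.81% of all 15573 genes. Dio2 was 1.87-fold higher in the KO than in the WT library (log2 0.90 ± 0.12, Fisher's exact test adjusted p = 1.1e-12), at rank 41 of those 7464 genes. Another 5 genes passed the adjusted p but not the fold. Tmem26 was 1.32-fold higher in KO (log2 0.41 ± 0.03), Mcf2l 1.30-fold (0.38 ± 0.07) and Smap2 1.22-fold (0.28 ± 0.03), with Fisher adjusted p of 7.9e-54, 1.5e-07 and 3.1e-24. Dab2 and Rab3il1 were lower in KO, at log2 -0.15 ± 0.03 and -0.17 ± 0.03, with adjusted p of 2.7e-05 and 7.2e-09. Arhgap22 gave 0.42 ± 0.17 (adjusted p = 0.0505) and Olfm1 -0.02 ± 0.07 (adjusted p = 1). These small adjusted p come from high read numbers and say nothing of replicate spread. The median size of the 8 ratios was 0.33, compared with 0.23 over all tested genes and 0.15 over those that averaged 5 FPKM or more. Without IL-4 the medians were 0.17, 0.16 and 0.09 in the same order. The 8 genes had a median transcript length of 3680 bases, against 2672 over all listed genes, and the ratio with IL-4 followed length, as described next.

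The KO and WT libraries with IL-4 also differed along transcript length. Across 10443 genes the log2 ratio had a Spearman correlation of 0.52 with transcript length, compared with 0.13 without IL-4, a correlation across genes that share the same libraries. Genes of 4400 to 6500 bases had a median ratio of 0.21 and genes of 2300 to 3000 bases of -0.03. Dio2 has a transcript of 6432 bases, Tmem26 of 5123 bases, Rab3il1 of 2320 bases, Smap2 of 2923 bases and Arhgap22 of 2598 bases. With the trend removed, Dio2 was still called with IL-4, at log2 0.62 (adjusted p = 6.0e-06, exact binomial test), and Tmem26 and Mcf2l moved to 0.21 and 0.18. By the same binomial test the adjusted p was 1.9e-14 for Tmem26 and 0.052 for Mcf2l. Mcf2l thus no longer passed the adjusted p of 0.05. Smap2 stayed at 0.28, Dab2 moved to -0.29 and Olfm1 changed sign to 0.006. Over all genes the removal took the calls from 475 higher and 119 lower to 218 higher and 98 lower. The cause of the trend was not tested.

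In both genotype pairs Tmem26, Mcf2l, Smap2, Arhgap22 and Dio2 were on the higher side in KO. Dab2, Rab3il1 and Olfm1 were on the lower side in both. The gap between the 2 genotype ratios of a gene is the difference of its IL-4 responses. The choice of the 8 genes favours a small gap, so the shared side is a description and not a repeat. In an additive model of genotype and treatment over the 4 libraries (edgeR quasi-likelihood test), Dio2 was called at log2 0.71 with an adjusted p of 1.4e-04, beside 1.35% of 11791 genes. DESeq2 gave Dio2 0.73 (adjusted p = 0.0069). The other 7 genes had adjusted p from 0.071 for Mcf2l and 0.094 for Tmem26 upward in the edgeR fit. The residual of both fits rests on that same gap, so their p for the 8 genes are not free of the choice. The Dio2 call was lost when genes with few reads entered the fit (adjusted p = 0.20), and with length as an offset its log2 ratio of 0.57 was just under the fold of the call. It was lost in the IL-4 pair as well when a biological coefficient of variation of 0.2 was assumed, where the adjusted p of every one of the 8 genes was 1 in both pairs.

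**Figure D3:**
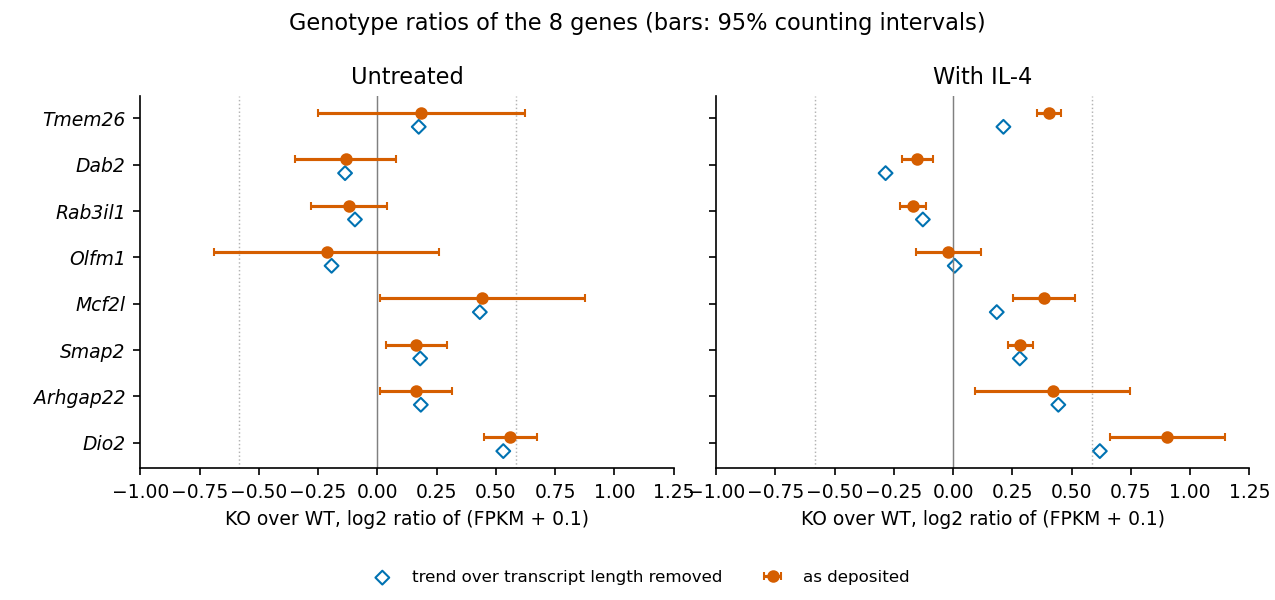
KO over WT log2 ratios of FPKM + 0.1 for the 8 genes without IL-4 (left) and with IL-4 (right). Orange points with bars are the deposited values with 95% counting intervals, blue diamonds are the same ratios after removal of the trend over transcript length, and dotted lines mark a 1.5-fold change. Dio2 with IL-4 is the only point beyond a dotted line (0.90, or 0.62 with the trend removed).

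Close relatives of 3 of the 8 genes had enough reads to compare, and 1 of them was called with IL-4. Arhgap24, a paralog of Arhgap22 that also acts on Rac, was called lower in both genotypes, from 22.92 to 7.91 FPKM in WT and from 22.44 to 9.19 FPKM in KO. Smap1, the paralog of Smap2, was at 37.6 and 35.6 FPKM in WT and at 32.87 and 33.25 FPKM in KO, untreated and with IL-4, and was called in neither genotype. Rab3ip, also called Rabin8 and the relative of Rab3il1, was at 2.40 to 2.78 FPKM in the 4 libraries and was not called either. Dio1 and Dio3, the other deiodinases, had at most 1 and 2 reads in any library, so Dio2 was the only deiodinase measured above the floor. Olfm2 had at most 2 reads, Mcf2 at most 1, and Olfm3, Olfm4 and Dab1 were listed in no library.

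The wider families were taken from gene lists, with the 8 genes themselves left out. Beside the counts of each list stand the shares over all genes, 4.91% called higher and 7.88% lower in WT. In KO these shares were 5.29% and 4.03%. Since the 8 were picked for large IL-4 ratios, nothing is read from their size against these genes. Among 22 Arf GTPase-activating proteins other than Smap2, 1 was higher and 3 lower in WT, and 2 higher and 2 lower in KO. Agap1 was lower in both genotypes, from 13.19 to 5.07 FPKM in WT and from 15.41 to 8.14 FPKM in KO, and Arap2 was higher in both (log2 0.91 ± 0.20 and 1.0 ± 0.19). In the module of Rab3, Rab8 and their effectors, the partners of Rab3il1, 0 of 31 genes were called in WT and 0 of 33 in KO, with median log2 ratios of -0.12 and -0.08. With the length trend removed 1 of them was called lower in KO.

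Of 41 clathrin adaptors and cargo receptors other than Dab2, 5 were called higher and 7 lower in WT, and of 40 in KO 6 were higher and 4 lower. With the length trend removed the counts were 6 higher and 3 lower in WT, and 4 higher and 3 lower in KO. The 5 higher in WT were also higher in KO: the transferrin receptor Tfrc, the AP-2 subunits Ap2m1 and Ap2a2, the light chain Clta and the scaffold Itsn1. Tfrc was at 39.14 and 163.36 FPKM in WT and at 54.32 and 191.59 FPKM in KO. Ap2m1, the AP-2 subunit that reads endocytic motifs, was at 178.68 and 575.59 FPKM in WT and at 176.39 and 481.33 FPKM in KO. The naming of Clta and Itsn1 followed sight of their values.

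Among 28 genes of thyroid hormone transport and action other than Dio2, 2 were called higher and 3 lower in WT, and 3 higher and 1 lower of 26 in KO. The transporter Slc7a5 and the hormone-responsive factor Klf9 were higher in both genotypes (log2 1.61 ± 0.14 and 0.76 ± 0.09 in WT), and the transporter Slco4a1 was lower in both (-2.34 ± 0.24 in WT and -2.26 ± 0.36 in KO). With IL-4 Slco4a1 was called lower in KO than in WT, at log2 -1.0, and Klf9 higher, at 0.63.

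Of the beige adipocyte markers other than Tmem26, 2 of 12 were called higher and 1 lower in WT, and 3 of 13 higher and 1 lower in KO. The costimulatory receptor Cd40, which is also a macrophage gene, was at 0.76 and 4.34 FPKM in WT and at 0.98 and 3.17 FPKM in KO. The other gene higher in both was Ear2, an eosinophil-type ribonuclease named after its values were seen, with 0 reads in both untreated libraries and about 12 with IL-4. Of the olfactomedin domain proteins other than Olfm1, 0 were called higher and 1 lower of 7 in WT, and 0 of 6 in either direction in KO. For comparison 27 of the 30 canonical markers were called higher in WT, 25 in KO, and 0 lower in either, with median log2 ratios of 3.34 and 3.18.

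**Figure D4:**
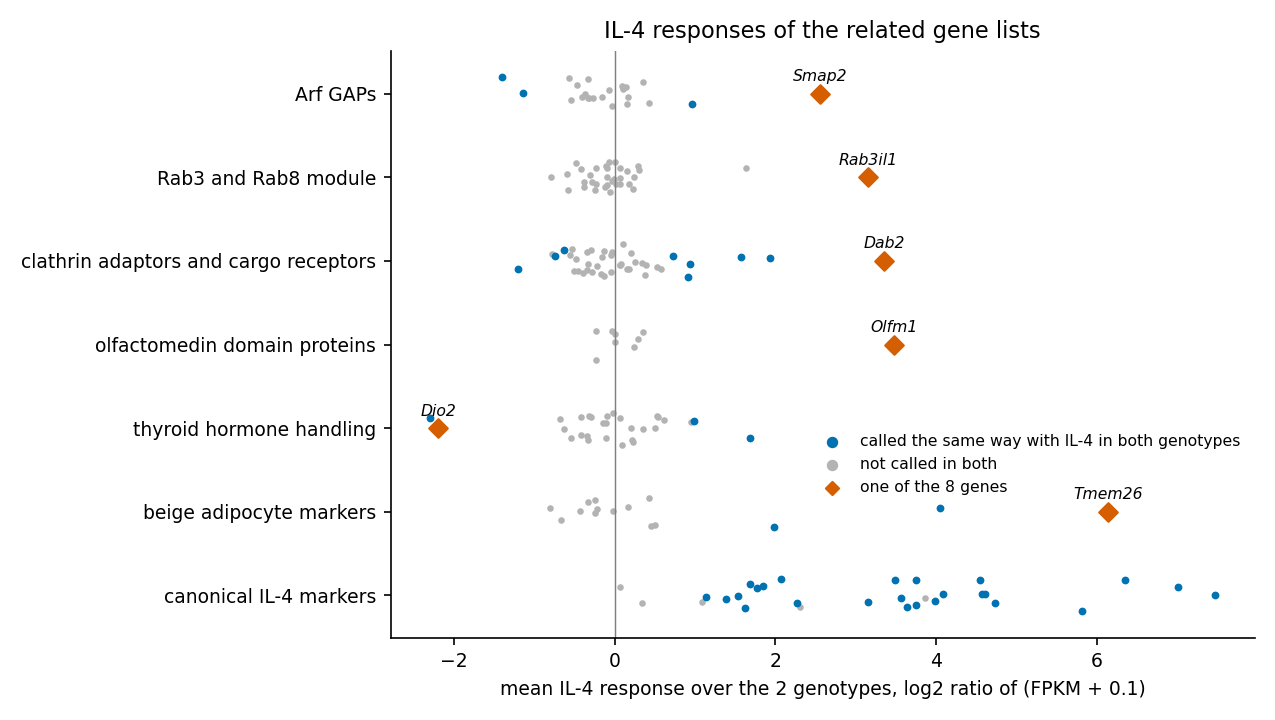
Mean IL-4 response over the 2 genotypes (log2 ratio of FPKM + 0.1) of each gene of the 7 lists shown, with those of the 8 genes that belong to a list as orange diamonds. Blue points passed the call the same way in WT and KO and grey points did not. Tmem26, Dab2, Rab3il1, Olfm1 and Smap2 stand beyond the other genes of their lists. That place follows from the choice of the 8 genes on their IL-4 ratios. Slco4a1 lies beside Dio2.

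The genes whose profile over the 4 libraries was most like each of the 8 were taken from 7439 genes, by the root mean square difference of the centred log2 values. Dab2 had both Olfm1 (0.083) and Rab3il1 (0.102) among its nearest 3 genes, and was itself the nearest gene of each. Ier3, an immediate early gene, was nearer still to Dab2 at 0.074, with 5.07 and 60.29 FPKM in WT and 5.16 and 53.89 FPKM in KO. Mcf2l lay nearest to Mrc1, the mannose receptor, at 0.146. Tmem26 lay nearest to Pdcd1lg2, which encodes the PD-1 ligand PD-L2, and Chil3, a chitinase-like lectin, at 0.210 and 0.238. Smap2 lay nearest to Gda, guanine deaminase, and Fgl2, a fibrinogen-like protein, at 0.062 and 0.079. Arhgap22 lay nearest to the inhibitory lectin receptor Clec12a at 0.117, followed by the potassium channel Kcnj2 and the receptor of bacterial RNA Tlr13. Dio2 had Arhgap22 as its nearest gene, at 0.222, followed by Mamdc2 (0.233) and Clec12a (0.246). A profile of 4 values mostly reflects the size of the IL-4 ratio, and no relation beyond that is shown.

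Reads from genes that overlap could be counted together, since the use of strand in the counting is not stated. In the GENCODE annotation of GRCm38, 1429 of the 3876 exonic bases of Arhgap22 overlap the antisense gene Gm15512, and 100 of the 5815 exonic bases of Dio2 overlap Gm26512 on the opposite strand. Dab2 shares 211 of 7342 exonic bases with a processed pseudogene, and Mcf2l shares 269 and 73 of 12760 with 2 antisense genes and 130 with a miRNA gene. Tmem26, Rab3il1, Olfm1 and Smap2 share none.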

How the data were processed

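Total RNA of 4 libraries (1 per group) was sequenced on a HiSeq instrument. The authors aligned reads with Bowtie to GRCm38 and deposited RSEM expected counts (estimated counts per gene) and FPKM values, versions not given in the sources used here; an unlisted gene was taken as 0. Of 16403 gene IDs, 16365 matched RefSeq symbols. Expected counts were rounded for all tests. Libraries were compared by two-sided Fisher's exact tests with Benjamini-Hochberg adjustment over all genes with a read, following the study's thresholds (fold above 1.5, adjusted p under 0.05). Ratios of 2 libraries are of FPKM + 0.1, which understates changes of low genes. Differences of the IL-4 responses use counts + 0.5 scaled by library total. Counting errors use counts + 0.5. Depth was 11026033 to 11250099 reads per library, and no interval or floor reaches beyond counting error, as fragments carry no molecular identifiers. The additive model used edgeR 4.0.16 (TMM, filterByExpr) or DESeq2 1.42.0, with 1 residual degree of freedom. The length trend was a lowess curve (fraction 0.3) of each library over log2 transcript length, for genes of at least 200 bases. Tried besides were removal of the length trend, TMM scaling, an assumed coefficient of biological variation (0.2, 0.4), a 1 FPKM filter, and pseudocounts of 0.01 and 1. Scripts were tested on simulated counts. Members and gene lists were chosen with earlier results of these data known. Some items of the lists are not reported here. Named genes were the 8 members with their families, Trim24, up to 3 genes per list (largest mean IL-4 response among those called alike in WT and KO and averaging 1 FPKM or more) and the 3 nearest profiles per member.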

Additional observations from a re-analysis of the deposited data

How the results depend on the processing

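The 8 genes kept the direction of their IL-4 ratio under every pseudocount, scaling and length setting run. Tmem26 ranged from 41.0-fold to 80.8-fold, Dab2 from 9.14 to 11.5, Rab3il1 from 8.45 to 9.29, Olfm1 from 8.18 to 12.4, Mcf2l from 6.82 to 12.5 and Smap2 from 5.51 to 6.15, and Arhgap22 and Dio2 were lower by 3.83 to 5.17 and 3.64 to 5.29. Of 64 genotype ratios under these settings 63 kept direction and call, and 1 changed sign, Olfm1 with IL-4 at 0.006 after removal of the length trend. When the biological coefficient of variation was set to 0.2 or 0.4, 0 and 0 of the 8 genes were called for genotype with IL-4, against 1. Over all genes the calls were then 258 and 45 for IL-4 in WT (1994 with counting error only), 272 and 33 in KO (1466), 15 and 7 for genotype without IL-4 (247) and 21 and 11 with IL-4 (594). A pseudocount of 1 FPKM gave 156 calls for genotype without IL-4 and 322 with IL-4, and removal of the length trend gave 316 with IL-4. The additive model called 159 genes, DESeq2 48, and edgeR with every gene that had a read 24. The share of higher calls with IL-4 in WT was 38.4%, and 44.1% at a pseudocount of 1, 45.1% with TMM and 49.8% without the length trend. For genotype with IL-4 it was 80.0%, and 69.0% without that trend. The causes of these shifts were not tested. No paired analysis was possible because each group holds 1 library and the labels carry no replicate numbers. For the same reason no library could be left out. Depth limits the genotype comparison of Tmem26, Olfm1 and Mcf2l without IL-4, which rests on 68 to 102 reads.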
